A study of Mus musculus with 10 samples.

Results

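Intergenic regions that lost accessibility in Tbx5G125R atria, and that stood apart from other lost regions, were described. They were chosen from a deposited table of 10010 regions by 4 criteria: a ratio of the geometric mean counts, Tbx5G125R over Control, below 1; a position outside every protein-coding gene span; a distance of more than 1 kb from the start and end of every annotated gene; and no place in a run of 4 or more lost regions with gaps of at most 50 kb. Of 1164 lost regions, 428 lay outside protein-coding genes and 386 of these kept the distance from gene ends. A further 16 lay in runs and were left out, so that 370 members remained, or 31.8% of the lost regions and 3.70% of the table. The authors' paper counts fewer sites of decreased accessibility than these 1164 lost regions, and the difference was not resolved here.

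Stretches of chromatin far from promoters that a transposase can enter are often enhancers, elements that bind transcription factors and act on genes at a distance. TBX5 is a T-box factor that binds such elements in the atrium together with factors such as GATA and NKX2-5, and keeps atrial rhythm genes expressed. An intergenic region does not name its target, and the nearest gene is given here as a landmark only.

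The ATAC-seq assay was run on PCM1-sorted atrial cardiomyocyte nuclei of mice 8 to 12 weeks of age, with left and right atria pooled per individual. The Tbx5G125R mice were heterozygous for a point mutation introduced with CRISPR-Cas9. They were compared with Control mice (n = 4 animals each). Control animals 1 and 3 had 2 libraries each, which were summed, and every other animal had 1. Summed over the table, counts per animal ran from 1716962 to 2414261 in Tbx5G125R and from 630392 in Control 2 to 2776475 in Control 3. Whole library depth is unknown. The table lists only regions that had been called different, so the sort cannot be checked from it. All 39 regions in or nearest to atrial cardiomyocyte marker genes were gained, against 88.4% of the table. At endothelial marker genes 10 of 14 were gained and 4 lost. The 3 regions at fibroblast marker genes and the 1 at smooth muscle and pericyte marker genes were gained. No member was nearest, within 100 kb, to a gene of the marker lists for cardiomyocytes, fibroblasts, endothelial, smooth muscle, leukocyte or neural, epicardial and fat cells. In these bulk samples fewer cardiomyocyte nuclei cannot be told apart from less open chromatin per nucleus.

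On the scale set here between genotypes, members were about 2-fold less accessible in Tbx5G125R atria. The median log2 fold change was -1.0, with quartiles of -1.16 and -0.88 and a range from -2.62 to -0.59. Mean scaled counts, that is counts divided by a scaling factor per animal, had a median of 28.2 over members in Tbx5G125R and 57.8 in Control. Of the 370 members, 187 were at least 2-fold lower and 19 at least 3-fold lower, counts that rest on this scale. All 370 passed edgeR's quasi-likelihood test as lower, against 11.6% of all regions, and the 4 Tbx5G125R animals lay below the 4 Control animals at 303 members (81.9%), against 8.8% of all regions. Because the members were selected on this contrast in these animals, the fold changes and both counts are descriptions only. With counts left unscaled, 65 members were called lower, against 2.16% of all regions, and the median was -0.64. That setting called 216 regions lower and 8846 higher.

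**Figure D1:**
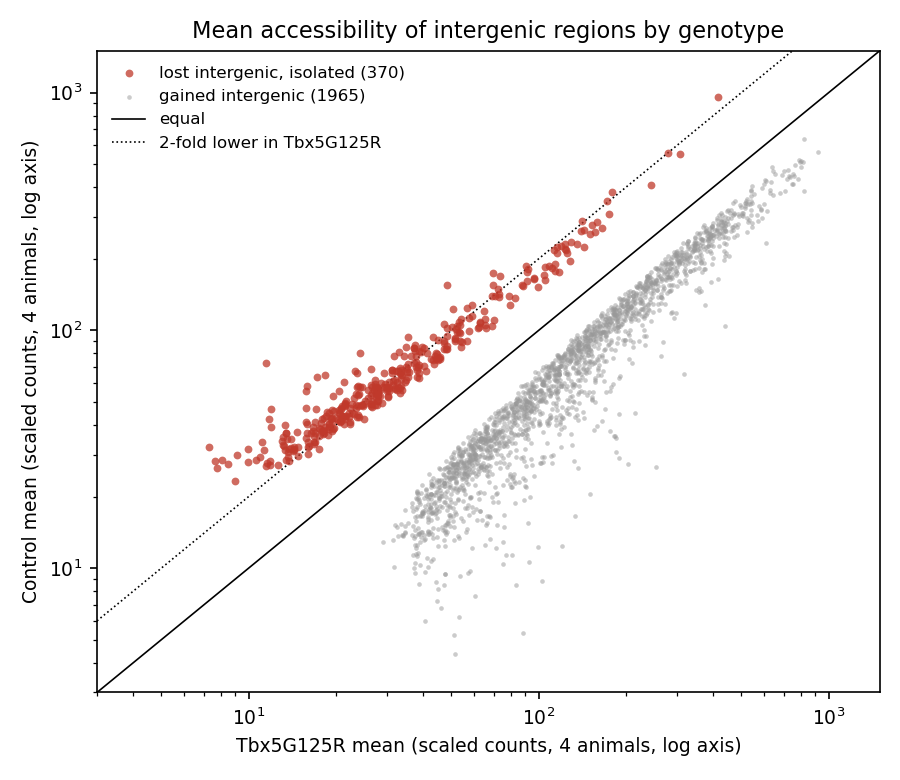
Mean scaled counts of 4 Tbx5G125R animals (x axis, log scale) against 4 Control animals (y axis, log scale) for the 370 members (red) and the 1965 gained intergenic regions (grey). The solid line marks equal levels and the dotted line 2-fold lower in Tbx5G125R. Members cluster about the dotted line, and neither set reaches the solid line. Regions without a called difference are not in the table. The scale between genotypes was also set to centre the gap between gained and lost regions on equal levels.

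The fold narrowed with the level. For 199 members with a Control mean under 60 the median log2 fold change was -1.10, for 123 members from 60 to 150 it was -0.92, and for 48 members at 150 or more it was -0.81. These limits were set after the values were seen, and a list of called regions keeps small folds only where counts are high. Gained intergenic regions showed the mirror order, with medians of 1.09, 0.75 and 0.65. Scaling each animal to its median over the table moved the median of all regions to 0.03, against 0.69, and that of the members to -1.66.

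At the edge of the ratio criterion no region of the table lay close to 1. The member with the highest ratio (0.835, 355294 bp from 2610301B20Rik) had scaled counts of 131, 124.8, 123 and 132 in the Tbx5G125R animals and 193, 218, 177 and 191 in the Control animals. The next members, 84076 bp from Tle3 and 81333 bp from Vmn1r2, had log2 fold changes of -0.59 and -0.61. Just outside were gained intergenic regions near Pdia4, Klrb1c and Nfib with ratios of 1.60, 1.66 and 1.67. At the 1 kb limit the innermost members lay 1182 bp from Pkdcc, 1203 bp from Clu and 1212 bp from the pseudogene Gm1859, and the first excluded regions lay 934 bp from Apmap, 873 bp from Gm41204 and 864 bp from Gm36408.

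The largest losses lay near genes of many kinds. Among members without overlap between animals and with a Control level at or above the median member, the most negative was chr3:3352501-3353500, 154530 bp from Hnf4g, a nuclear receptor gene. Its scaled counts were 11.7, 9.52, 9.30 and 15.3 in Tbx5G125R animals 1 to 4, and 44.5, 65.7, 62.2 and 118 in Control animals 1 to 4, a log2 fold change of -2.62 ± 0.32 (SE). All Tbx5G125R animals lay together at the bottom, and Control 4 stood above the other Control animals.

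A pair of members lay downstream of Tbx19, a T-box gene known for its role in the pituitary. At chr1:165109001-165110000, 27834 bp from the gene, scaled counts were 20.8, 21.0, 28.8 and 25.8 in Tbx5G125R animals and 70.9, 68.1, 94.6 and 88.5 in Control animals (log2 fold change -1.74 ± 0.22, SE). At chr1:165110751-165111500 they were 22.1, 21.9, 27.9 and 22.0 in Tbx5G125R animals and 40.4, 37.6, 59.1 and 51.3 in Control animals (-1.03 ± 0.26). The genotypes did not overlap at either region, which the choice had required of the first, and in both of them Control 3 was the highest animal.

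The strongest loss among members with a Control level of 150 or more was at chr17:14516751-14518000, 111961 bp from Smoc2, which encodes a calcium-binding matrix protein. Tbx5G125R animals had 63.8, 23.8, 44.6 and 60.3 scaled counts and Control animals 171, 178, 133 and 138 (-1.69 ± 0.21, SE). Tbx5G125R 2 was the lowest, and the lowest Control animal was above 2 times the highest Tbx5G125R animal. Near Sorbs2, a Z-disc and intercalated disc adaptor gene, a region 1595 bp past the end (chr8:45829501-45830500) had 22.1, 29.5, 33.5 and 9.57 scaled counts in Tbx5G125R animals and 94.9, 58.7, 52.4 and 59.0 in Control animals. Control 1 was far above the other Control animals there.

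Regions near Kcnt2 (a sodium-activated potassium channel gene, 489706 bp away), Dcc (a netrin receptor gene, 562273 bp) and Gfra2 (a neurturin receptor gene, 148661 bp) had log2 fold changes of -1.93, -1.79 and -1.46. For Rab2a, a small GTPase gene, the value was -1.48 at 18969 bp. A region 2222 bp from the pheromone receptor gene Vmn1r38 had a fitted value of -1.68 ± 0.43 (SE), and 1 animal stood far apart, without which the value was -0.94. Control 2 had 155 scaled counts there, against 31.6, 36.5 and 30.8 in the other Control animals and 16.9, 26.7, 15.8 and 9.57 in the Tbx5G125R animals.

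**Figure D2:**
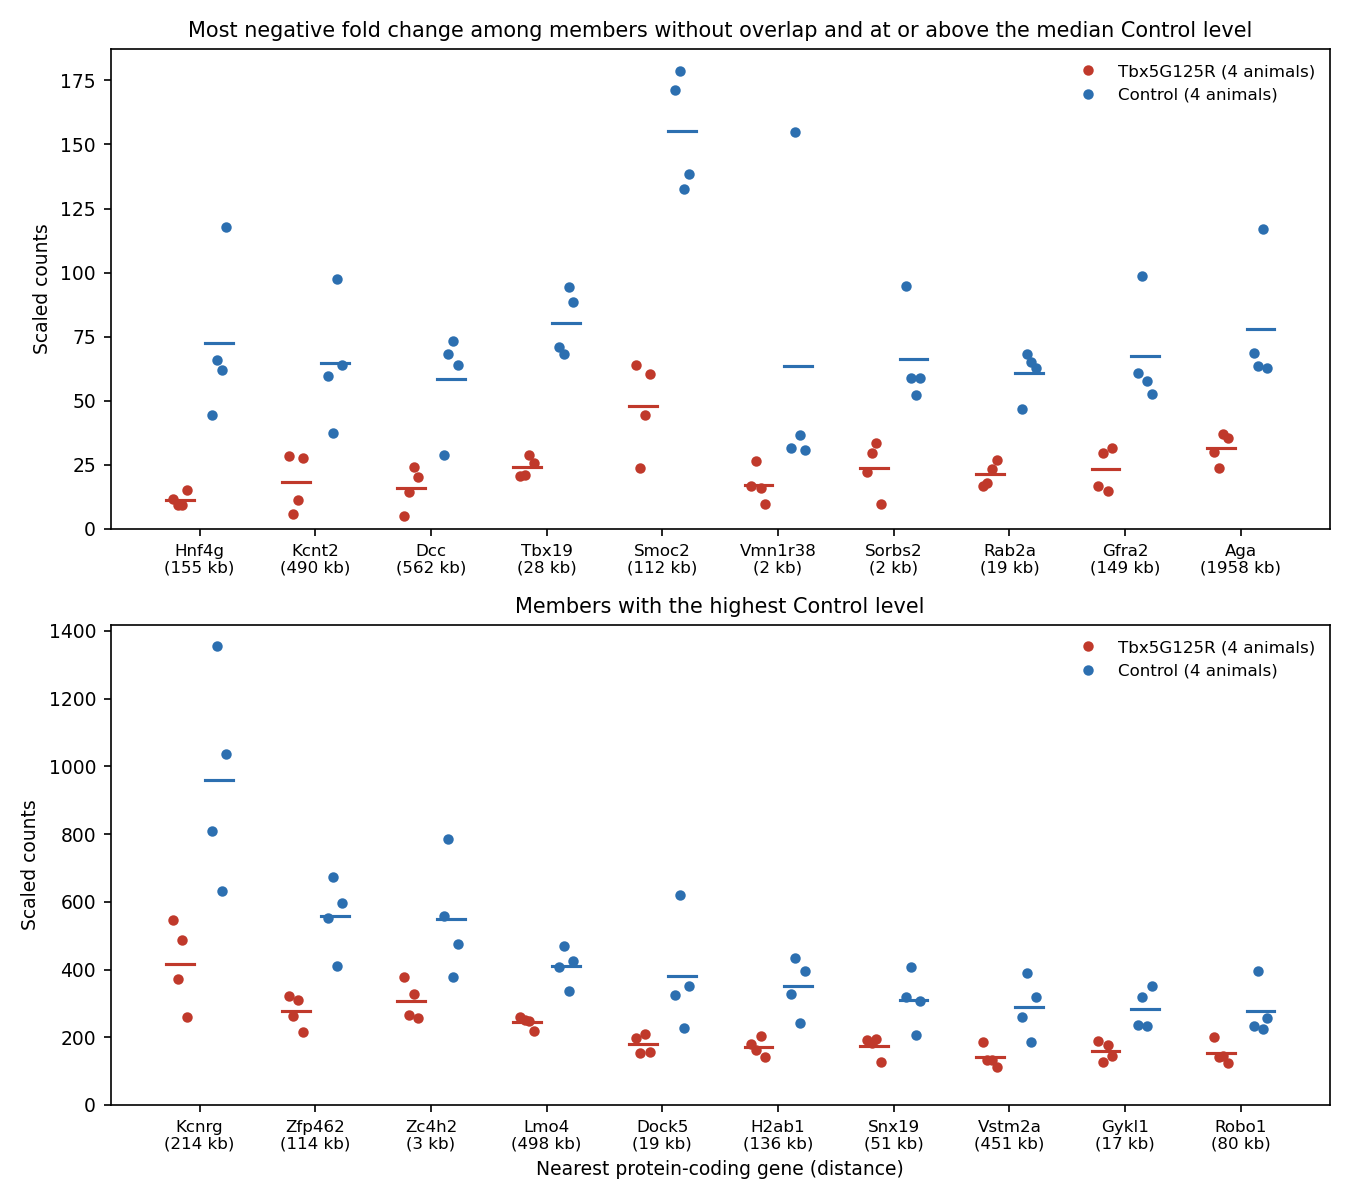
Scaled counts of each animal (points; bars are means of 4 animals) at the 10 members with the most negative fold change among those without overlap and with a Control level at or above the median member (top) and the 10 members with the highest Control level (bottom), Tbx5G125R in red and Control in blue, by nearest protein-coding gene with its distance. The separation in the top row was fixed by this choice. In the bottom row, whose members were also selected on this contrast, the region near Zc4h2 is the one where genotypes meet, since the highest Tbx5G125R animal and the lowest Control animal both had 379.

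The most accessible member lay at chr14:61827251-61828000, 214418 bp past the end of Kcnrg, which encodes a regulator of potassium channels. Scaled counts were 547, 371, 486 and 260.2 in Tbx5G125R animals and 810.2, 1355, 632 and 1037 in Control animals, with means of 416 ± 127 and 959 ± 312 (SD, n = 4) and a log2 fold change of -1.17 ± 0.17 (SE). Control 2 was highest and Control 3 lowest within Control, and Tbx5G125R 1 was highest and Tbx5G125R 4 lowest within Tbx5G125R.

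A similar order of animals returned at the next regions. Near Zfp462, a zinc finger gene (chr4:54829251-54830250, 114241 bp), counts were 323, 263, 311 and 216 in Tbx5G125R animals and 552, 674, 409.6 and 596 in Control animals. Near Zc4h2 on chromosome X (chrX:95635751-95636500, 2687 bp) they were 379, 267, 328 and 255 in Tbx5G125R animals and 558, 787, 379 and 474 in Control animals, so that the highest Tbx5G125R animal met the lowest Control animal. Near Dock5 (chr14:67952751-67953500, 19179 bp), a guanine nucleotide exchange factor gene, they were 197, 153, 209 and 156 in Tbx5G125R animals and 324, 619.9, 227 and 351 in Control animals.

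In each of these regions Control 2 was highest and Control 3 lowest of the Control animals. The region near Lmo4, a LIM-only transcriptional regulator gene (chr3:143690001-143690750, 497780 bp), kept the order with a smaller spread, at 259, 249.5, 246 and 219 in Tbx5G125R animals and 409, 469.6, 336 and 426 in Control animals. The remaining members of the highest 10 lay near H2ab1, Snx19, Vstm2a, Gykl1 and the guidance receptor gene Robo1. Their log2 fold changes ran from -0.99 near Vstm2a to -0.79 near Snx19.

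This shared order extended to most of the highly accessible members. After the mean of each genotype was removed, a single component held 61.9% of the variance between animals of a genotype over the 48 members with a Control mean of 150 or more, against 30.9% for the 123 members from 60 to 150 and 25.3% for the 199 members under 60. The median correlation between pairs of the 48 members over the 8 animals was 0.52, against 0.11 and 0.05 in the lower classes. These correlations share libraries and scaling and are descriptions. Control 2 was the highest Control animal at 35 of the 48 members, and Control 3 the lowest at 39. Over the 199 members under 60 the order differed, with mean log2 deviations of 0.15, -0.06, 0.07 and -0.16 in Control animals 1 to 4. Counting error was also nearer to the spread at that level, as given below.

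On average the 48 members deviated from their genotype mean by 0.17, -0.14, 0.11 and -0.15 on the log2 scale in Tbx5G125R animals 1 to 4, and by 0.01, 0.28, -0.30 and 0.01 in Control animals 1 to 4. Depth differed alongside. Control 2, the highest, had the smallest count sum, 630392, and Control 3, the lowest, had the largest, 2776475. Tbx5G125R 1 likewise had the smallest sum of its genotype and the highest deviation, while Tbx5G125R 3 had the largest sum, 2414261, and a deviation of 0.11. The part of depth in this pattern was not tested.

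Repeat libraries of an animal lay near each other. Both libraries of Control 3 were low at the 48 members, by -0.36 and -0.29 relative to the mean Control profile, and the libraries of Control 1 were at 0.06 and -0.08. Over all 370 members the chi-square per degree of freedom was 2.10 between the libraries of Control 1 and 1.67 between those of Control 3, against 2.54 to 4.74 between libraries of different Control animals. Taking the 48 members of highest Tbx5G125R level instead left the component at 61.9% and the deviation of Control 2 at 0.27. Without Control 2 the component held 53.7%, and without Control 3 51.9%.

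A like order of animals was seen at lost regions within genes. At 41 isolated lost regions in gene bodies of the same level a single component held 64.9%, and the deviations of Control 2 and Control 3 were 0.29 and -0.27. At 405 gained intergenic regions of that level it held 33.2%, with deviations of 0.05 and 0.01. Animals were scaled within genotype by median ratios over the table, where 8846 of 10010 regions were gained. That scaling tends to hold gained regions near 0, and its part in the contrast with lost regions was not tested. The spread followed: the median coefficient of variation over animals was 17.6% in Tbx5G125R and 21.2% in Control for the 48 members, and 8.82% and 11.5% for the gained intergenic regions. Counting error alone gives 9.35% in Tbx5G125R and 7.43% in Control for those members, and 5.36% and 7.30% for those gained regions. The sets were matched on Control level only. Mean scaled counts per Tbx5G125R animal were 382 to 394 in the gained regions, against 118 to 152 in the members. The difference between these sets was not tested, since regions are not replicates.

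**Figure D3:**
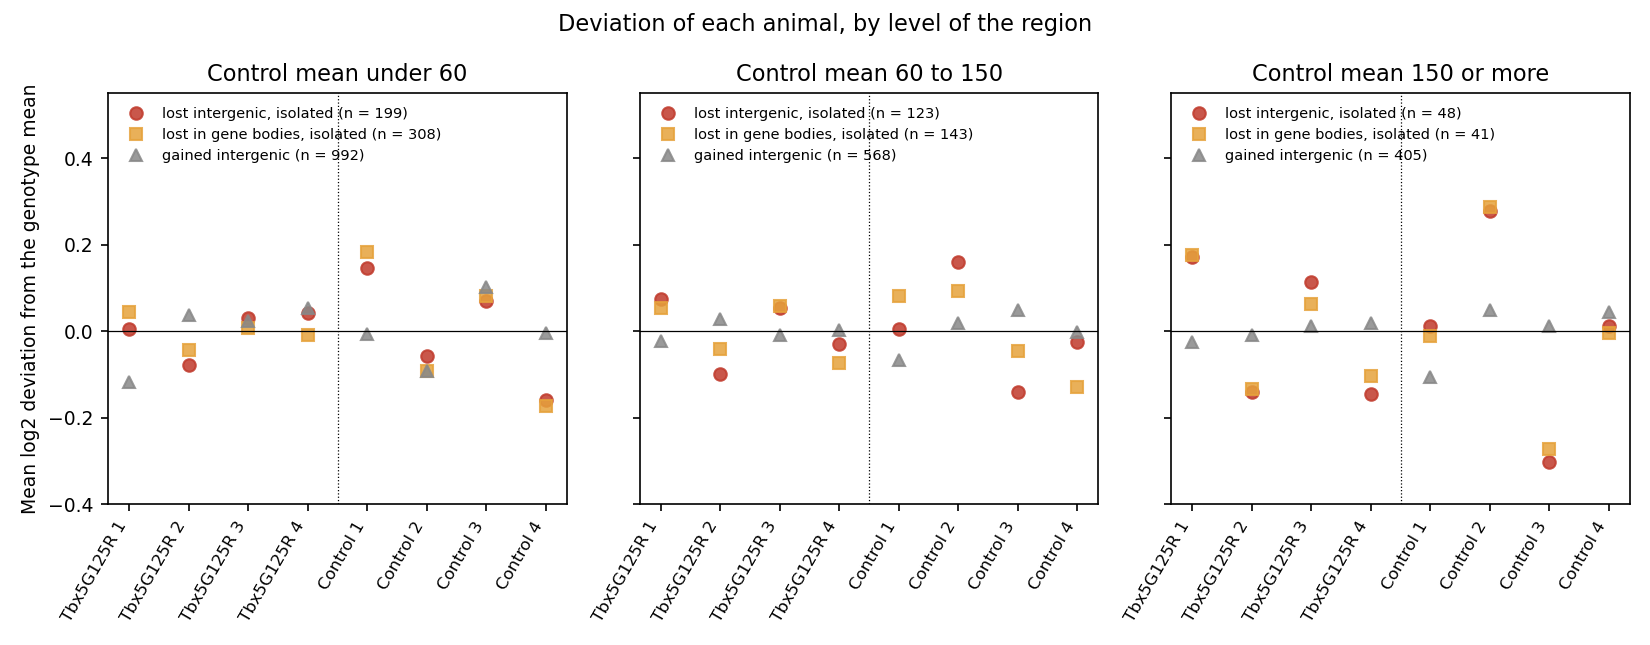
Mean log2 deviation of each animal from the mean of its genotype (y axis), in 3 classes of Control level, for members (red circles), isolated lost regions in gene bodies (orange squares) and gained intergenic regions (grey triangles). In the class of 150 or more, Control 2 sits at 0.28 and Control 3 at -0.30 for members, with lost gene-body regions beside them and gained regions near 0. Scaling by median ratios over a mostly gained table tends to hold gained regions near 0, and its part in the contrast was not tested.

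Not all of the 48 members followed it. The correlation of a member with the mean of the other 47 had a median of 0.77 and exceeded 0.8 at 21 members, with values of 0.97 near Bckdhb and 0.96 near Zc4h2. It was below 0 at 3 members, among them those near Nbea and Cacna2d1. The region near Nbea, a gene for a synaptic trafficking protein, was nearly even in Control, with scaled counts of 95.0, 101, 130.2 and 117 in Tbx5G125R animals and 187, 176, 183 and 188 in Control animals.

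Among members of lower level, spread was nearer to counting error. Over the 199 members under 60 the median coefficient of variation was 28.0% in Tbx5G125R and 24.5% in Control, where counting alone gives 22.5% and 16.5%. Genotypes overlapped at 67 of the 370 members, with a median Control mean of 42.7, against 60.4 for the others. In 64 of the 67 the overlap ended when 1 animal was left out, and the lowest Control animal was Control 4 in 31 and Control 2 in 23, the Control animals with the smallest count sums.

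The positions of members were then compared with those of other regions of the table. Members lay at a median of 38.8 kb from the nearest protein-coding gene, and gained intergenic regions at 37.2 kb. Of the members, 82 (22.2%) were within 10 kb of a gene, 119 (32.2%) over 100 kb away and 28 (7.57%) over 500 kb away, against 22.95%, 28.4% and 4.17% of gained intergenic regions. Across these distances the median log2 fold change was -1.03 within 10 kb, -1.01 from 10 to 100 kb, -0.99 from 100 to 500 kb and -0.96 beyond. Where the strand of the gene was annotated, 134 of 276 members (48.6%) lay upstream of the start, against 52.3% of gained intergenic regions.

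Some members lay far from any protein-coding gene. The region farthest from one, chr8:51553001-51553750, lay 1957933 bp from Aga, a lysosomal enzyme gene. It had 29.9, 23.8, 37.2 and 35.4 scaled counts in Tbx5G125R animals and 68.5, 63.4, 117 and 62.8 in Control animals, Control 3 being far above the others. An annotated gene of another kind lay 98843 bp from it. Regions 1739944 bp from Stim2, a sensor of stored calcium, and 1532859 bp from Acvr2a, an activin receptor gene, followed, with log2 fold changes of -0.60 and -0.64, and other annotated genes lay 39908 and 22773 bp from them. Tbx5G125R and Control animals did not overlap at any of them, as at 81.9% of all members and 8.8% of all regions.

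Members also lay away from gained regions. The nearest gained region was at a median distance of 185 kb from a member, and 79 members (21.4%) had a gained region within 50 kb. For gained intergenic regions the nearest other gained region was at a median of 29.8 kb, and 56.6% had one within 50 kb, while isolated lost regions in gene bodies had one within 50 kb in 30.5% of cases. Gained here means a ratio above 1 in the table. Counting only the 856 regions called higher with animals scaled to the table median, an alternative added after seeing the data, 11 members (2.97%) and 16.4% of gained intergenic regions had one within 50 kb, at median distances of 1572 and 721 kb. No test was made of these shares, since regions are not replicates and the run criterion removed clustered losses.

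**Figure D4:**
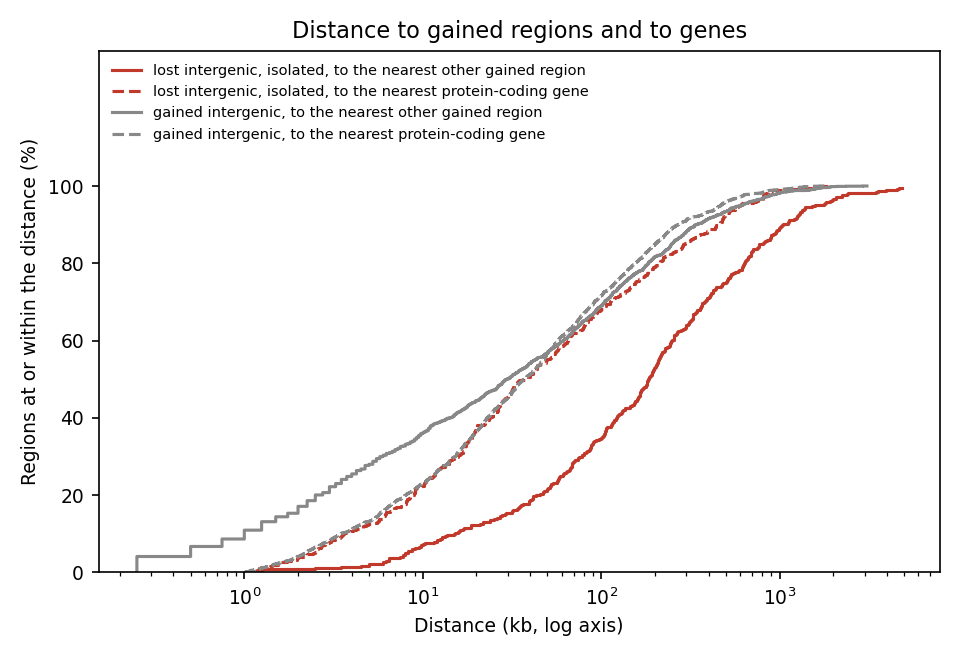
Share of regions (y axis, percent) at or within a distance in kb (x axis, log scale) of the nearest other gained region (solid) or the nearest protein-coding gene (dashed), for members (red) and gained intergenic regions (grey). The dashed lines nearly coincide, with medians of 38.8 and 37.2 kb, whereas the solid lines have medians of 185 kb for members and 29.8 kb for gained intergenic regions.

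Some members had a gained region close by. Of the 46 members named by rule, 10 had a gained region within 25 kb. The closest lay past the end of Bmp10, which encodes an atrial bone morphogenetic protein. The member, chr6:87440501-87441000, had 41.7, 40.0, 18.6 and 35.4 scaled counts in Tbx5G125R animals and 58.0, 70.4, 59.6 and 70.5 in Control animals (log2 fold change -0.92 ± 0.24, SE). Only 2500 bp away, chr6:87443501-87444250 averaged 189 ± 12.5 in Tbx5G125R animals and 117 ± 6.89 in Control animals (SD, n = 4), or 0.69 ± 0.12 (SE) as a log2 fold change, which was 0.03 with animals scaled to the table median.

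At Lpl, the lipoprotein lipase gene, the member 4069 bp outside the gene (chr8:68911001-68911500) had 7.81, 16.2, 10.2 and 13.4 scaled counts in Tbx5G125R animals and 43.9, 44.6, 31.3 and 37.2 in Control animals (-1.67 ± 0.33, SE). Inside the gene, 7500 bp from it, a gained region averaged 289.6 ± 2.24 in Tbx5G125R animals and 207 ± 26.7 in Control animals (SD, n = 4), or 0.50 as a log2 fold change, which turned to -0.16 with animals scaled to the table median. Genotypes were apart at both regions, as the choice had required of the member. The fainter one carried the greater fold, but a list of called regions keeps small folds only where counts are high. Near Col4a1, the collagen IV gene, the member had a log2 fold change of -1.44 ± 0.32. The gained region 7750 bp from it had 0.58 ± 0.09, which turned to -0.08 with animals scaled to the table median.

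The direction of the gained neighbours thus rested on the scale between genotypes. With each animal scaled to its median over the table, the log2 fold changes of the 10 gained neighbours ran from -0.23 to 0.25, with only those near Snx19 and Bmp10 above 0, and those of the members stayed below 0.

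**Figure D5:**
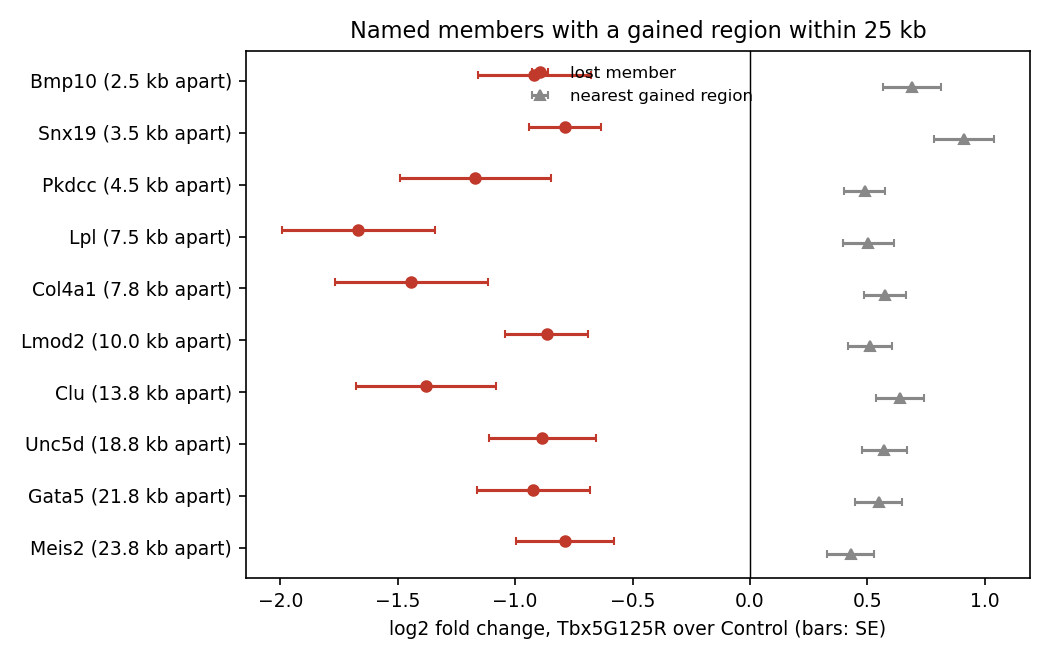
Log2 fold change, Tbx5G125R over Control (x axis; bars are SE), of the 10 members with a gained region within 25 kb, of 46 named by rule, (red circles) and of that gained region (grey triangles), ordered by the gap between them. Members range from -1.67 near Lpl to -0.79 near Snx19 and Meis2, and their gained neighbours from 0.43 near Meis2 to 0.91 near Snx19, which with animals scaled to the table median would be -0.23 and 0.25.

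Genes of the atrial programme were then read from lists of cardiac genes. Of 251 members with a protein-coding gene within 100 kb, 18 (7.17%) had a gene of 9 lists as the nearest, against 108 of 1406 gained intergenic regions (7.68%). The 18 members fell to 16 genes. They were 2 members each for calcium handling, sarcomere and actin cytoskeleton, gap junction and intercalated disc, and secreted factors and receptors, 4 for cardiac transcription factors, 3 for adhesion, guidance and matrix, and 1 each for potassium channels, for sodium, chloride and pacemaker channels, and for fatty acid and mitochondrial metabolism. All 18 had fold changes below 0, as the selection required, and 15 showed no overlap between animals, a share like that of all members (81.9%), against 8.8% of all regions.

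Both calcium handling members were clear of overlap, as were 81.9% of all members and 8.8% of all regions. The region 15846 bp from Ryr3, a ryanodine receptor gene (chr2:113233251-113234000), was among the faintest, with 6.51, 8.57, 8.37 and 7.65 scaled counts in Tbx5G125R animals and 37.5, 25.8, 27.2 and 15.4 in Control animals. The region 39740 bp past the end of Cacna2d1 (chr5:16414251-16415500), which encodes an auxiliary calcium channel subunit, had 69.0, 49.5, 90.2 and 85.1 in Tbx5G125R animals and 172, 153, 199.9 and 155 in Control animals. The log2 fold changes were -1.79 ± 0.39 and -1.23 ± 0.17 (SE).

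For contractile genes, a member lay 2587 bp past the end of Lmod2, the leiomodin that elongates thin filaments (chr6:24608001-24609000). It had 160.1, 99.1, 126 and 112 scaled counts in Tbx5G125R animals and 332, 164, 189 and 183 in Control animals, and Control 1 alone was far above the rest. A member 10126 bp before the start of Actc1, cardiac alpha-actin, overlapped between genotypes, with 18.2, 13.3, 24.2 and 14.3 in Tbx5G125R animals and 46.9, 21.1, 40.1 and 19.2 in Control animals.

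Near Pkp2, which encodes the desmosomal protein plakophilin 2, a pair of members lay 5539 and 9039 bp from the gene. The nearer one (chr16:16278251-16279000) had 23.4, 16.2, 17.7 and 14.3 scaled counts in Tbx5G125R animals and 49.8, 47.0, 39.6 and 33.3 in Control animals. The farther one had 19.5, 20.001, 15.8 and 27.7 in Tbx5G125R animals and 70.3, 21.1, 39.6 and 56.4 in Control animals. Only the nearer one was free of overlap, since Control 2 was low at the other.

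The transcription factor members lay near Nr2f1, Gata5 and Meis2. Upstream of Nr2f1, which encodes an orphan nuclear receptor (COUP-TFI), chr13:78207501-78208500 had 31.2, 33.3, 27.0 and 24.9 scaled counts in Tbx5G125R animals and 56.2, 49.3, 74.0 and 51.3 in Control animals (-1.03 ± 0.23, SE). Upstream of Meis2, a homeobox gene, chr2:116089751-116090250 had 62.5, 33.3, 41.9 and 53.6 in Tbx5G125R animals and 72.1, 93.9, 75.5 and 92.3 in Control animals (-0.79 ± 0.21). Neither region overlapped between genotypes, as was required of members named from the lists.

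Of the regions assigned to Gata5, a cardiac GATA factor gene, the nearer one (chr2:180362501-180363250, 26998 bp upstream) was nearly equal among Tbx5G125R animals, at 32.5, 31.4, 33.5 and 30.6, against 73.2, 82.2, 49.3 and 43.6 in Control animals. The other one, chr2:180395251-180395750, lay inside the span of Mir1a-1hg, the host transcript of the muscle microRNAs miR-1a-1 and miR-133a-2, and was singled out for this after its values were seen. It lay 6126 bp from Mir1a-1 and 2628 bp from Mir133a-2, with 109, 79.1, 100.5 and 65.1 scaled counts in Tbx5G125R animals and 232, 131, 159.8 and 92.3 in Control animals (-0.86 ± 0.20, SE). Control 4 fell among the Tbx5G125R animals. A gained region, chr2:180385001-180385750, reached over one end of the same transcript and averaged 746 ± 113 in Tbx5G125R animals and 510.2 ± 62.0 in Control animals (SD, n = 4), a difference whose direction turned with animals scaled to the table median (log2 fold change 0.55, against -0.11).

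Among the other lists, the member near Kcna4, a transient outward potassium channel gene, had the smallest fold, with 48.2, 47.6, 67.0 and 53.6 scaled counts in Tbx5G125R animals and 83.8, 77.5, 93.5 and 84.6 in Control animals (-0.66 ± 0.19, SE). Values for the members near Clic4, an intracellular chloride channel gene, and Tgfb2, which encodes transforming growth factor beta 2, were -0.74 ± 0.22 and -0.95 ± 0.24. The guidance receptor genes Unc5d and Robo1 had values of -0.88 ± 0.23 and -0.82 ± 0.15. Animals of the genotypes did not overlap at these 5 regions, as was required of members named from the lists.

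Most members stood alone. There were 312 members with no other lost region within 50 kb, 45 in runs of 2 and 13 in runs of 3, and 21 runs held at least 2 members. In all, 17 protein-coding genes were nearest to at least 2 members within 100 kb. Ube2d1, a ubiquitin-conjugating enzyme gene, had 3, past its end on chromosome 10, of which the closest pair was 250 bp apart. The first of that pair had 28.6, 17.1, 36.3 and 29.7 scaled counts in Tbx5G125R animals and 69.1, 37.6, 54.5 and 41.0 in Control animals, and the second 27.3, 32.4, 31.6 and 28.7 in Tbx5G125R animals and 84.4, 44.6, 62.2 and 32.0 in Control animals. Control 1 was the highest Control animal in both, and only the second overlapped between genotypes. The other pair at 250 bp lay past the end of Utf1, with log2 fold changes of -1.09 and -1.16.

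Chromosome X held 23 members, which made up 11.2% of its 206 regions and 69.7% of its 33 lost regions, against 3.70% and 31.8% over the table. Their median log2 fold change was -0.97, and 21 of the 23 showed no overlap, against 303 of all 370 members and 8.8% of all regions. Both regions of chromosome Y in the table were members and had counts in all animals. At the one near Gm20924 scaled counts were 23.4, 24.8, 19.5 and 22.0 in Tbx5G125R animals and 42.2, 35.2, 44.7 and 42.3 in Control animals. Sex is not given in the labels.

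The median width of members was 750 bp, as for gained intergenic regions, against 500 bp for isolated lost regions in gene bodies. Of the members, 177 were 500 bp wide and 9 exceeded 1000 bp. These 9 had a median log2 fold change of -1.44. At each the genotypes did not overlap, as at 81.9% of all members and 8.8% of all regions. There were 65 members (17.6%) inside the span of a noncoding gene, 58 of them long noncoding RNA genes, against 16.4% of gained intergenic regions. Their median log2 fold change was -1.0, as for the 305 members outside every gene span.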

How the data were processed

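ATAC-seq reads of 10 libraries from 8 mice were processed by the authors, whose notes name BWA, bedtools, DESeq2 and build mm10 without versions. Read shifting, duplicate removal and multiple mapping are not given in the sources used here. The authors deposited raw counts for 10010 regions made from 500 bp bins, as whole numbers; 4 columns, treated here like expected counts, had 0 written as 0.1 by the authors (26 values, rounded back to 0); whether counts cover a whole region or 1 bin is not stated. The deposited log2 fold change and adjusted p-value of the authors' own comparison were not used.

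Repeat libraries were summed. Animals were scaled within genotype by median ratios. The genotypes were set so that the gap between gained and lost regions was centred on 0: in 10 bins of level, the midpoint between the 2nd percentile of gained and the 98th percentile of lost log2 ratios, median over bins. The bin midpoints ran from -0.15 to -0.02 around the -0.07 used. Each region was tested in edgeR 4.0.16 under R 4.3.3 with a quasi-likelihood fit, 4 animals against 4 animals, Benjamini-Hochberg adjusted over the table at 0.05. The biological coefficient of variation was 11.6%. All 1164 lost regions were called lower and 8846 higher (88.4% of calls); with each animal scaled to its table median 1227 were called lower and 856 higher (41.1%), and the median over the table was 0.03, against 0.69. The edgeR code was tested on simulated counts with the scaling factors supplied, so the setting of the scale between genotypes was not tested.

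Deviations and components used log2(scaled count + 1). Coordinates are mm10, 1-based, and genes are RefSeq GRCm38.p6. Members and gene lists were chosen with earlier results of these data known. Named were the 10 most negative members without overlap at or above the median Control level, the 10 of highest Control level, up to 3 without overlap per gene list, the 3 on each side of each limit, the 3 farthest from a protein-coding gene and the 2 closest pairs. Others, such as Nbea, Actc1 and Mir1a-1hg, were named after their values were seen. No genome was used, so sequences were not analysed here. Alternatives were DESeq2 1.42.0, limma 3.58.1 on log2(scaled count + 1), other scalings, a filter on a mean count of 20, a replicate block, the first library only and each animal left out.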

Additional observations from a re-analysis of the deposited data

Results flagged for a closer look

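In 92 groups of 4 animals at 46 named members, 6 had an animal far from the other 3, by a gap above Dixon's critical value at 95%; chance gives about 1 in 20 groups. Control 2 had 155 scaled counts near Vmn1r38 and 270.0 near Vmn1r2, both pheromone receptor genes. Control 1 had 94.9 near Sorbs2 and 332 near Lmod2. Control 3 had 117 at the remote region nearest to Aga. In Tbx5G125R the one such value was 126 in animal 4 near Snx19, the only low one of the 6. Over all 370 members, Control 2 was such an animal at 11, Tbx5G125R 3 and Control 3 at 8 each, Tbx5G125R 1 at 7, and each other animal at 2 to 5.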

How the results depend on the processing

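Every named member kept a negative fold change under all 16 alternatives, and 30 of 46 missed the threshold only with unscaled counts. Members were selected for a ratio below 1 in unscaled counts of these libraries, so these signs and the calls below are descriptions only. In the main setting 11.6% of all regions were called lower. Unscaled counts called 65 members lower, against 2.16% of all regions, with a median log2 fold change of -0.64. Under them 39 members showed no overlap, and the share of all regions without overlap was not computed for that setting. Scaling to the table median gave a median of -1.66 and TMM -1.67. Leaving out each animal in turn gave 367 to 370 calls, the lowest without Control 1, medians from -1.06 to -0.94, and a median Control coefficient of variation from 19.4% (without Control 2) to 22.9%, against 22.7% with all animals. With the replicate number as a block, 370 members were called, with a median of -0.995. Same-numbered animals correlated by 0.17, -0.00081, 0.07 and 0.03 over all regions, and not every animal correlated best with its own number, so the numbers were not read as pairs. DESeq2, limma, the first library only and the count filter (369 of 369 members tested) changed no call. The rule gave 267 members at 5 kb and 395 with the ends of protein-coding genes only, a reading added after seeing the data. Motif shares were not run, since no genome was used. The split by level, the component and its alternatives were also chosen after seeing the data. Control 2 had the fewest counts, which limits faint members most.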
